A study of Saccharomyces cerevisiae with 2 samples.

Results

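PHO5 and PHO3 are neighbouring acid phosphatase genes on chromosome 2 of budding yeast, Saccharomyces cerevisiae, and the locus described here was set by position, as the interval chr2:426500-433500 of the sacCer2 build. PHO5 was taken at about chr2:429550-430950 and PHO3 at about chr2:427700-429100, both on the minus strand, with up to 50 bp of uncertainty in each gene coordinate. Upstream of PHO5 therefore lies toward higher coordinates, and transcription of both genes runs toward lower ones. The interval held 30 of the 49499 nucleosome positions called over the 16 nuclear chromosomes with both libraries added. Of the 30 positions, 4 lay in the PHO5 promoter (the 1000 bp above the PHO5 start), 7 in the PHO5 coding region, 2 in the PHO3 promoter (the 449 bp between the genes) and 8 in the PHO3 coding region. The other positions comprised 6 above the PHO5 promoter and 3 below PHO3. In the gene order of the RefSeq R64 table, which was used for names and lengths and not for coordinates, PHO3 is followed by PHO5 and PHO5 by PBY1, which lies on the opposite strand. The coding sequences of PHO5 and PHO3 are each 1404 bp long in that table, as are those of the related acid phosphatases PHO11 and PHO12.

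The series holds 2 libraries of 1 condition, the nucleosomes of growing yeast cells, mapped by digestion with micrococcal nuclease (MNase) and sequencing. MNase cuts the DNA between nucleosomes and leaves the wrapped DNA largely intact. Cells were grown in the rich medium YPD to an optical density of 1.5 and fixed with 1% formaldehyde for 30 min. The enzyme, 3.5 units, was applied to spheroplasts (cells without walls) for 20 min at 37 °C, and DNA of about 147 bp was cut from a gel and sequenced from 1 end for 36 cycles. The study names the BY laboratory strain, and the labels give neither a genotype nor the nature of the second library (a separate culture or a repeat of the same DNA), so the spread between the libraries may be technical. With 1 condition there was no comparison between conditions, no medium low in phosphate was included, and no test or p-value is given.

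PHO5 encodes the main secreted acid phosphatase, and it is a classic model of a gene switched by chromatin. When phosphate is plentiful, the Pho80-Pho85 cyclin-dependent kinase phosphorylates the activator Pho4, which then stays out of the nucleus, and the PHO5 promoter is covered by positioned nucleosomes around a short accessible stretch that holds a Pho4 binding site. Phosphate starvation lets Pho4 enter the nucleus, and the promoter nucleosomes are then removed. PHO3 encodes a closely related acid phosphatase that is made when phosphate is plentiful and is repressed by thiamine.

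Replicate 1 held 21973866 reads and replicate 2 held 19288900, of which 16675 and 14797 had their 5′ end in the locus. Each read marks 1 end of a fragment, so its 5′ end was moved inward, by 47 bp (replicate 1) or 43 bp (replicate 2), to give a fragment centre. These moves are midpoints of the distance at which plus-strand and minus-strand ends correlated best over all nuclear chromosomes, 94 bp in replicate 1 and 85 bp in replicate 2, which is well under the gel size. Within the locus that distance was 80 bp in replicate 1 and 73 bp in replicate 2. Occupancy of a base is the number of centres within 36 bp of it, divided by the median over all nuclear bases (91 reads in replicate 1 and 74 in replicate 2), so that 1 is the nuclear median. A count of 3 reads, the upper limit that a count of 0 allows, is an occupancy of 0.033 in replicate 1 and 0.0405 in replicate 2. Sharpness of a position is the percentage of the reads centred within 73 bp of it that are centred within 20 bp.

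The libraries gave closely similar maps of the locus. Of the 30 positions called in each library alone, 26 were matched within 20 bp, which is 86.7% of each list and close to the 80.2% found for the positions of replicate 1 over all nuclear chromosomes. Matched positions lay 0 to 16 bp apart, with a median of 4 bp. The unmatched were A5 and A6 in PHO5, B7 in PHO3 and D2 below it (the names count positions from the start of each gene, or downward). The occupancy of the locus correlated between the libraries with Pearson's r = 0.956 and Spearman's rho = 0.967 over 7001 bases, beside r = 0.961 and rho = 0.949 over all nuclear bases. Neighbouring bases share reads, so these coefficients are descriptions. The correlation was r = 0.974 in the PHO5 promoter, 0.971 in the PHO3 coding region and 0.841 in the PHO5 coding region, the lowest of these.

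**Figure D1:**
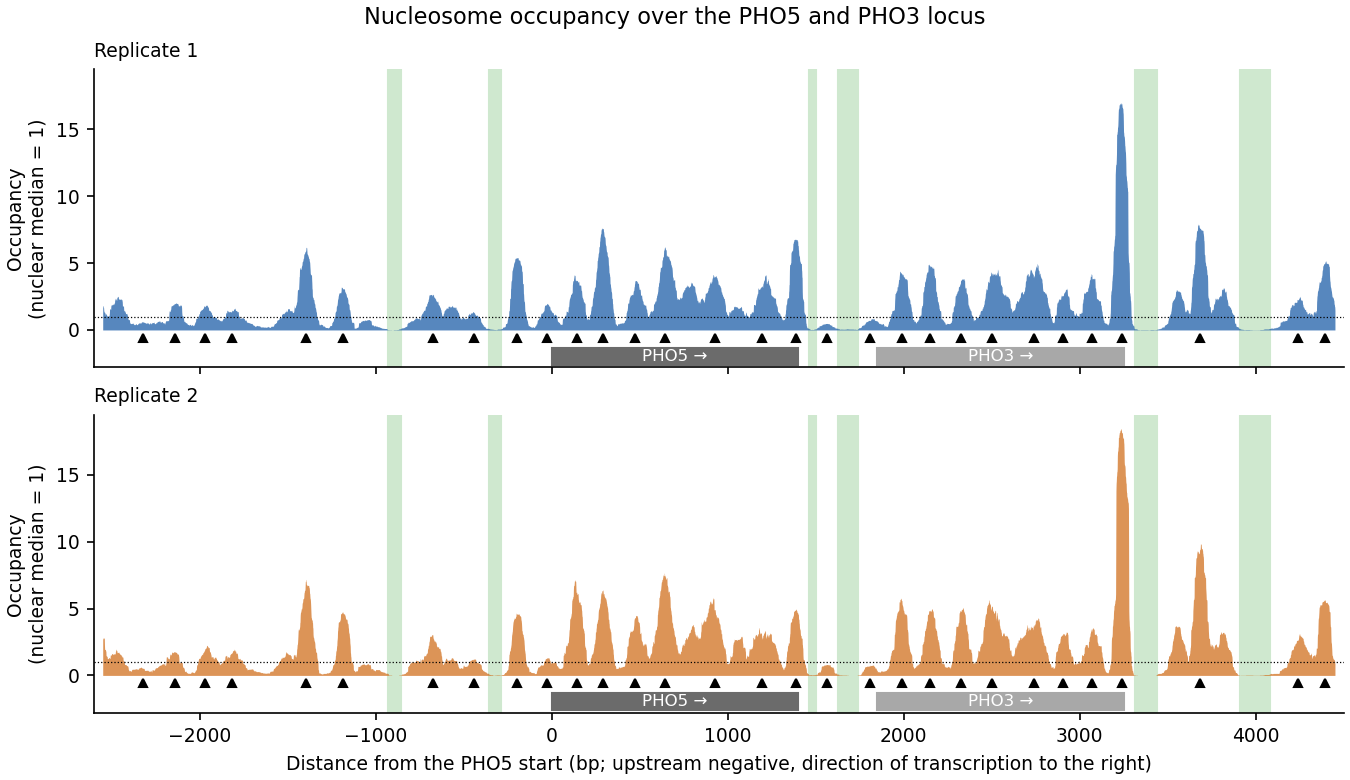
Occupancy (nuclear median = 1, dotted line) against distance from the PHO5 start in bp, for replicate 1 (top) and replicate 2 (bottom), with triangles at the 30 called positions, bars for the genes and green shading over the stretches under an occupancy of 0.1 in both libraries. Both coding regions were filled without a shaded stretch, 2 shaded stretches lay in each promoter and 2 below PHO3, and the tallest peak lay at the 3′ end of PHO3.

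The PHO5 promoter had 4 called positions, here U1 to U4 going upstream, and each was found in both libraries. U1 was centred at chr2:430975, 25 bp upstream of the PHO5 start, which is less than the uncertainty of that start. U2 was centred at chr2:431146, 196 bp upstream, U3 at chr2:431391, 441 bp upstream, and U4 at chr2:431624, 674 bp upstream. In the single libraries U1 lay at 430975 in both, U2 at 431146 and 431145, U3 at 431391 and 431393, and U4 at 431628 and 431619 (replicate 1 first). The distance to the next position below was 168 bp for U1, 171 bp for U2, 245 bp for U3 and 233 bp for U4, beside a median of 211 bp over all nuclear positions. U1 and U2 thus followed the first position inside PHO5 at close spacing, and within the promoter the wider steps began above U2. Steps wider than these also lay inside the PHO5 coding region, 282 bp between A4 and A5 and 266 bp between A5 and A6.

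U2 was the strongest and sharpest position of the promoter. Its occupancy was 5.41 in replicate 1 and 4.59 in replicate 2 (mean 5.00 ± 0.57, SD, n = 2), higher than 89.4% and 78.4% of all nuclear positions of those libraries. Of the reads centred within 73 bp of U2, 79.6% of 529 in replicate 1 (95% exact Clopper-Pearson interval 75.9 to 82.9%) and 79.7% of 365 in replicate 2 (75.2 to 83.7%) were centred within 20 bp. The nuclear medians of sharpness were 53.1% in replicate 1 and 56.7% in replicate 2, and U2 was sharper than 97.4% and 93.5% of nuclear positions. Its cut sites also coincided between libraries. The fullest plus-strand base was 431100 with 51 reads in replicate 1 and 431098 with 21 reads in replicate 2, and the fullest minus-strand base was 431199 in both, with 48 reads in replicate 1 and 21 in replicate 2. The fullest bases of U2 were thus 99 bp apart in replicate 1 and 101 bp in replicate 2.

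The other promoter positions were lower and less sharp. U1 had an occupancy of 1.96 in replicate 1 and 1.31 in replicate 2 (mean 1.63 ± 0.46, SD, n = 2), with the largest ratio between libraries of the 4, and that ratio, 1.49, was above that of 91.0% of nuclear positions. Its sharpness was 49.1% of 212 reads in replicate 1 (42.1 to 56.0%) and 42.4% of 132 reads in replicate 2 (33.9 to 51.3%). U3 had an occupancy of 1.30 in replicate 1 and 1.22 in replicate 2 (mean 1.26 ± 0.06), above 23.2% and 20.8% of nuclear positions, with a sharpness of 49.4% of 164 reads (41.5 to 57.3%) in replicate 1 and 44.9% of 118 reads (35.7 to 54.3%) in replicate 2. U4 had an occupancy of 2.63 in replicate 1 and 2.88 in replicate 2 (mean 2.75 ± 0.18), close to the middle of nuclear positions, with a sharpness of 47.6% of 328 reads (42.0 to 53.1%) in replicate 1 and 57.9% of 271 reads (51.8 to 63.9%) in replicate 2. The sharpness intervals of U1, U3 and U4 lay below those of U2 in each library, and the intervals cover counting error only.

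**Figure D2:**
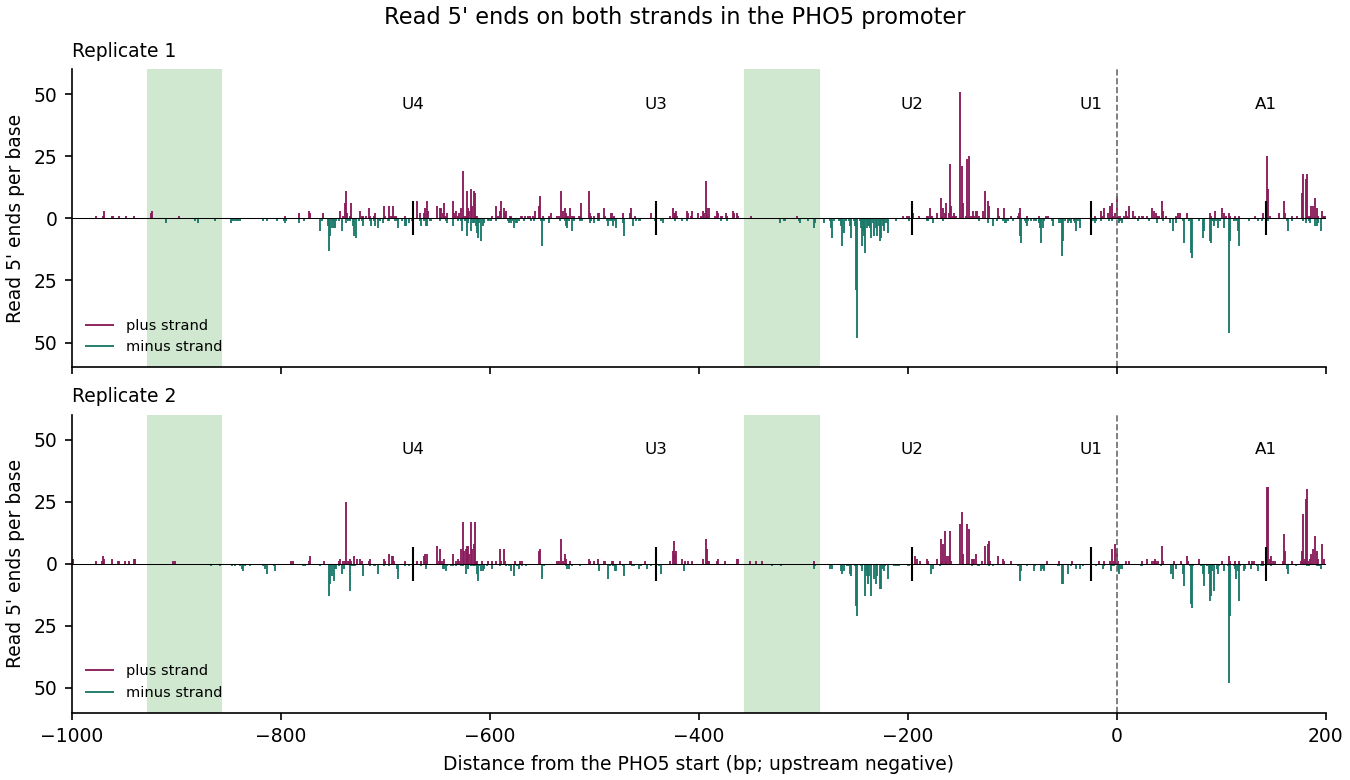
Read 5′ ends per base on the plus strand (up) and the minus strand (down) against distance from the PHO5 start in bp, in replicate 1 (top) and replicate 2 (bottom), with ticks at the called positions and green shading over the stretches under an occupancy of 0.1 in both libraries. The ends of U2, 196 bp upstream, stand in a narrow group on each strand in both libraries, and the shaded stretches at 285 to 356 bp and 857 to 927 bp hold few ends.

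A gap separated U2 from U3. Between them the occupancy fell below 0.1 in both libraries over 72 bp, chr2:431235-431306, which is 285 to 356 bp upstream of PHO5. The lowest value was 0.022 in replicate 1 and 0.0135 in replicate 2, from 2 reads and 1 read, both under the limit that a count of 0 allows. From the intervals of 150 bp as deposited, the lowest mean of both libraries between U2 and U3 was 0.156, so that the gap was no longer under 0.1. Over these 72 bp lay 16 read 5′ ends in replicate 1 and 9 in replicate 2. Stretches of this kind, at least 10 bp long, numbered 9846 over the nuclear chromosomes with a median of 68 bp, so in length the gap was near the middle (longer than 52.1%). Above U4 the occupancy fell further, to 0 in both libraries. Between the other neighbours of the promoter array, up to U4, the signal stayed higher. The lowest occupancy was 0.187 in replicate 1 and 0.135 in replicate 2 between U1 and U2, 0.418 and 0.514 between U1 and the first position inside PHO5, and 0.813 and 0.527 between U3 and U4.

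The widest step of the promoter lay above U4, 510 bp to the next called position at chr2:432134, wider than 99.2% of nuclear steps. It held a stretch of 71 bp under 0.1 in both libraries, chr2:431807-431877, 857 to 927 bp upstream of PHO5, where the occupancy reached 0 in each library. The rest of the step was not empty. Further local maxima stood at chr2:431726, 776 bp upstream, with 157 reads in replicate 1 and 145 in replicate 2, and at chr2:432011, 1061 bp upstream, with 84 and 87 reads, each within 147 bp of a higher position and so not called. Another such maximum lay between U3 and U4 at chr2:431521, 571 bp upstream, with 263 reads in replicate 1 and 138 in replicate 2, more than the 164 and 118 of U3 itself. The width of the step depended on how maxima were called. It was 387 bp with a zone of 120 bp, 285 bp with a zone of 100 bp, 345 bp with a Gaussian of SD 10 bp in place of 20 bp, and 344 bp with a move of 73 bp. With the zone of 100 bp the promoter had 6 positions. The positions of U1 to U4 were the same under both smaller zones.

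A low value can also be a place where no read could be placed. A base is called here without a placed read if no read of 36 bases, on either strand and in either library, had its lower end there (35 bp below the 5′ end for a minus-strand read). At the bottom of the gap between U2 and U3 this held for 31 bases in a row, 431257 to 431287. Of all bases of the PHO5 promoter, 52.8% were without a placed read, beside 48.5% of nuclear bases. Whether sequence that cannot be placed uniquely contributed to the gap was not tested.

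The coding regions were filled, and both promoters were lower, with mean occupancy below the median of nuclear windows of their length. Mean occupancy of the PHO5 promoter was 1.17 in replicate 1 and 1.03 in replicate 2 (1.10 ± 0.10, SD, n = 2), beside medians of 1.37 and 1.46 for nuclear windows of 1000 bp, and it exceeded 34.8% and 22.0% of those windows. The PHO5 coding region averaged 2.73 in replicate 1 and 3.06 in replicate 2 (2.89 ± 0.23), above 97.4% and 97.9% of nuclear windows of its length. The promoter held 0.428 times the mean occupancy of the coding region in replicate 1 and 0.336 times in replicate 2. For PHO3 the contrast was wider. Its promoter averaged 0.595 in replicate 1 and 0.513 in replicate 2 (0.55 ± 0.06), above 12.3% and 10.6% of nuclear windows of 449 bp, and its coding region 2.86 and 3.03 (2.95 ± 0.12), above 98.0% and 97.8% of windows, so that the promoter held 0.208 and 0.169 times the mean of the coding region. The 449 bp take in the flank of the last PHO5 position, where occupancy reached 6.31 in replicate 1 and 4.57 in replicate 2. Of the PHO5 promoter 15.6% of bases in replicate 1 and 16% in replicate 2 lay under 0.1, of the PHO3 promoter 35.2% and 41.6%, and of either coding region 0.0%, beside 11.7% and 13.0% of nuclear bases. In both libraries the promoter of either gene was lower than its coding region. With 1 read kept per position and strand the coding means fell to 1.52 for PHO5 and 1.40 for PHO3, and that of the PHO5 promoter to 0.869.

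The positions of the PHO3 promoter were low. They were centred at chr2:429141, 41 bp upstream of the PHO3 start, which is less than the uncertainty of that start, and at chr2:429387, 287 bp upstream. The nearer had an occupancy of 0.725 in replicate 1 and 0.757 in replicate 2, from 98 and 64 reads, and the farther 0.495 and 0.811, from 52 and 65 reads. All 4 values were below the nuclear median of bases and above at most 12.8% of nuclear positions. Their sharpness differed between the libraries, with intervals that did not overlap, and so was not settled. The nearer had 40.8% in replicate 1 (31.0 to 51.2%) and 73.4% in replicate 2 (60.9 to 83.7%), and the farther 53.8% (39.5 to 67.8%) and 81.5% (70.0 to 90.1%), so that in replicate 2 both were above the nuclear median and the farther was close to U2. Stretches under 0.1 in both libraries covered 115 bp between them, 109 to 223 bp upstream of PHO3, and 43 bp above the farther, 346 to 388 bp upstream. In this promoter 68.6% of bases had no placed read, the highest share of the regions described here. The reads centred within 73 bp of its positions were mostly on the minus strand, with a plus-strand share of 19.4% in replicate 1 and 25% in replicate 2 at the nearer and 32.7% and 32.3% at the farther, beside 48.4% and 48.8% at U2.

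**Figure D3:**
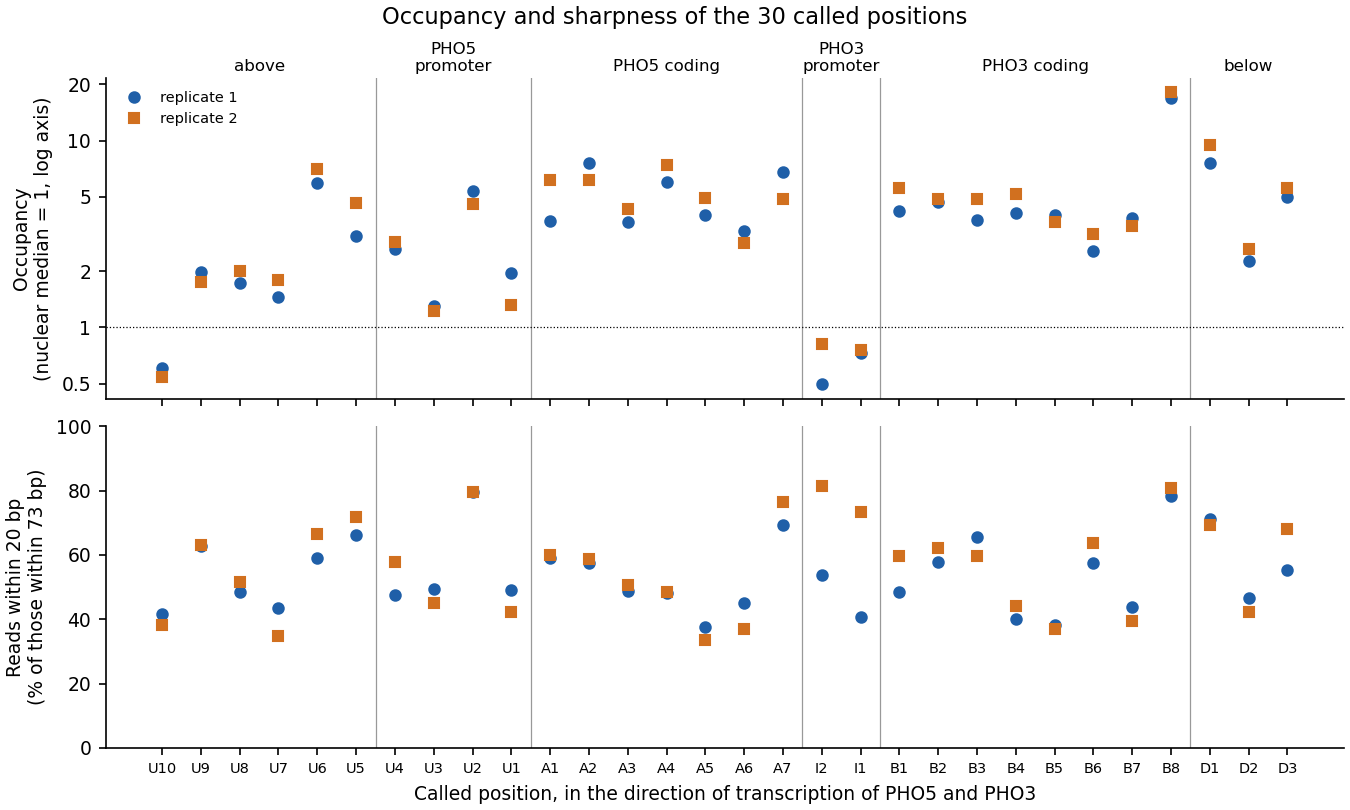
Occupancy (top, log axis, nuclear median = 1, dotted line) and sharpness (bottom, percentage of the reads centred within 73 bp that were centred within 20 bp) of the 30 called positions in the direction of transcription, with 1 point per library. U5 to U10 lie above the PHO5 promoter, A1 to A7 in PHO5, I1 and I2 in the PHO3 promoter, B1 to B8 in PHO3 and D1 to D3 below it. U2 is the highest of U1 to U4 in both panels, I1 and I2 are below the nuclear median in occupancy while their sharpness differs widely between libraries, and B8 has the highest occupancy, 16.9 in replicate 1 and 18.2 in replicate 2.

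The PHO5 coding array had 7 positions, here A1 to A7 from the start of the gene, with neighbours 150 to 282 bp apart and a median of 186 bp. Occupancy ran from 3.26 to 7.60 in replicate 1 with a median of 3.98, and from 2.84 to 7.39 in replicate 2 with a median of 4.91. These values lay in the upper part of the nuclear distribution, the lowest of them above 54.5% of nuclear positions. Median sharpness was 48.7% in replicate 1 and 50.5% in replicate 2, below the nuclear medians of 53.1% and 56.7%. In each library 3 of the 7 positions were above the nuclear median. A1, at chr2:430807 and 143 bp inside the gene, differed most between libraries, with 3.69 in replicate 1 and 6.18 in replicate 2. The array was regular from A1 to A4 and loose further in. A5 was called at 430013 in replicate 1 and 430054 in replicate 2, 41 bp apart, with a sharpness of 37.5% and 33.6%, and A6 of replicate 1 had its nearest position of replicate 2 140 bp away. Local maxima left out of this stretch stood at 429893 (238 reads in replicate 1 and 262 in replicate 2) and 430160 (480 and 393 reads). With an exclusion zone of 120 bp the region had 9 positions and a median spacing of 146.5 bp.

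The PHO3 coding array had 8 positions, B1 to B8, 162 to 240 bp apart with a median of 166 bp. B1 to B7 had occupancies between 2.57 and 4.70 in replicate 1 and between 3.15 and 5.59 in replicate 2. The exception was B8, centred at chr2:427712 at the 3′ end of the gene, with 16.9 in replicate 1 and 18.2 in replicate 2 (mean 17.5 ± 0.89, SD, n = 2), above 99.9% and 99.8% of nuclear positions. It held 1587 and 1375 reads, and 78.3% and 80.9% of them were centred within 20 bp. Its fullest bases were the same in both libraries. The plus-strand base 427666 began 234 reads in replicate 1 and 239 in replicate 2, and the minus-strand base 427751 began 117 and 78 reads. Without the bases within 120 bp of B8 the mean occupancy of PHO3 was 2.51. The next position below the gene, at chr2:427268, was also high, with 7.60 in replicate 1 and 9.43 in replicate 2, and the 444 bp between it and B8 held a stretch of 128 bp under 0.1, chr2:427510-427637. A further such stretch of 168 bp, chr2:426871-427038, was longer than 89.1% of nuclear ones.

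PHO5 and PHO3 start 1850 bp apart, and their coding arrays were similar when laid over each other by distance from the start. A1 to A4 lay at 143, 293, 474 and 647 bp in PHO5, and the nearest PHO3 positions at 140, 302, 477 and 652 bp. A7 at 1386 bp lay beside B8 at 1388 bp, but A7 rested mostly on 1 strand, with 88.9% of its reads on the plus strand in replicate 1 and 87.8% in replicate 2, whereas B8 had 49.3% and 56.1%. In all 5 of the 7 PHO5 positions had a PHO3 position within 20 bp, as had 6 of 7 in replicate 1 and 7 of 7 in replicate 2, whereas 17.2% of all nuclear positions had another within 20 bp of the place 1850 bp below (17.3% in replicate 1 and 17.1% in replicate 2). With 1 read per position and strand the count was 2. The occupancy of PHO5 correlated with that of PHO3 at 1850 bp with r = 0.70 in replicate 1 and 0.56 in replicate 2, and best at 1849 and 1844 bp. Other displacements came close, with an r of up to 0.60 in replicate 1 and 0.51 in replicate 2.

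**Figure D4:**
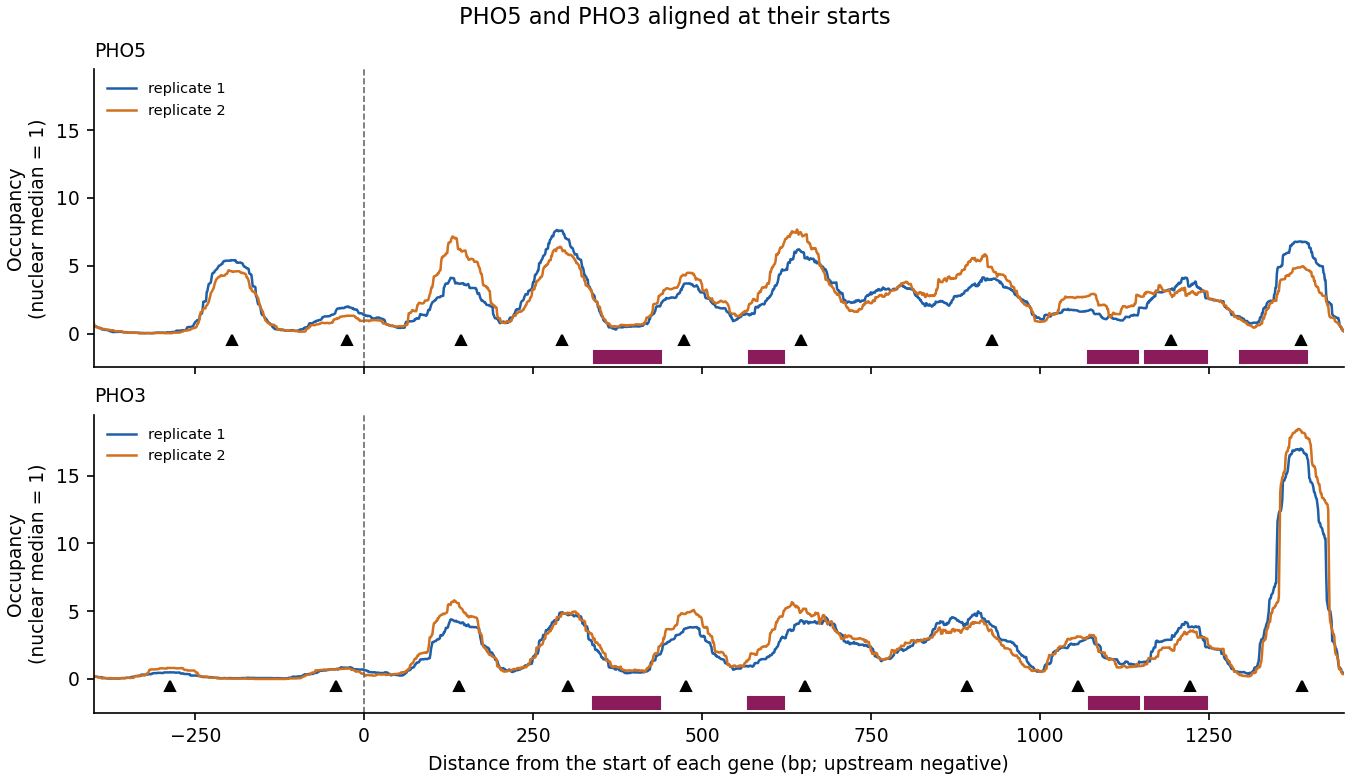
Occupancy (nuclear median = 1) of PHO5 (top) and PHO3 (bottom) against distance from the start of each gene in bp, 1 line per library, with triangles at the called positions and bars over the bases that 36-base reads would span if their lower ends lay in the coding stretches of at least 15 bp without a placed read. Of the 7 triangles inside PHO5, 5 have a PHO3 triangle within 20 bp of the same distance. Of the bars, 4 fall at like distances in both genes, and the fifth bar of PHO5, near its 3′ end, has no counterpart in PHO3.

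The likeness reached single bases. Counts of 5′ ends correlated between the genes at 1850 bp with r = 0.56 on the plus strand and 0.48 on the minus strand in replicate 1, and with 0.58 and 0.48 in replicate 2. This displacement was the best of those tried in each library and strand, and the highest r at others was between 0.129 and 0.204. Of 14 fullest bases compared (1 for each strand of 7 pairs of positions), 4 in each library lay exactly 1850 bp apart. The plus-strand bases of A7 and B8 were among them in both libraries. That of A7 was 429516, with 98 reads in replicate 1 and 40 in replicate 2. That of B8 was 427666, with 234 and 239 reads. Both lie just below the lower ends taken for PHO5 (429550) and PHO3 (427700), within the 50 bp of uncertainty. The minus-strand bases of A7 and B8 were 1836 bp apart in both libraries. They held 14 and 10 reads for A7 and 117 and 78 for B8.

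Stretches where no read was placed were also shared. In PHO5 they lay 1191 to 1248, 1107 to 1146, 605 to 622 and 375 to 440 bp downstream of the start, and in PHO3 1191 to 1248, 1108 to 1147, 603 to 622 and 374 to 438 bp downstream. PHO5 had a further stretch of 64 bp, 1332 to 1395 bp downstream, that had no counterpart in PHO3, where B8 lies. Of 515 PHO5 bases and 528 PHO3 bases without a placed read, 342 coincided at 1850 bp. These were 66.4% of those of PHO5 and 64.8% of those of PHO3. At displacements more than 20 bp away at most 253 coincided, with a median of 212. The number was also raised close by, with 284 at 1849 bp and 279 at 1851 bp. The stretches of 58 bp at 1191 bp lay under A6 of PHO5 and B7 of PHO3, whose strand edges were 147 and 135 bp apart in replicate 1 and 146 and 135 bp in replicate 2, beside nuclear medians of 94 and 87 bp. A strand edge is the median plus-strand end in the 100 bp below a position, or the median minus-strand end in the 100 bp above. Stretches of at least 40 bp took up 14.0% of the coding bases of both genes and 8.52% of nuclear bases. The genes are close copies, and reads from sequence that is identical in both can be dropped or placed on either copy, so the values of PHO5 and PHO3 cannot be taken as independent. The part of shared sequence in the aligned arrays, in their lows, in the coding means and in the height of B8 was not tested. The same holds for the ratios of promoter to coding region.

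**Figure D5:**
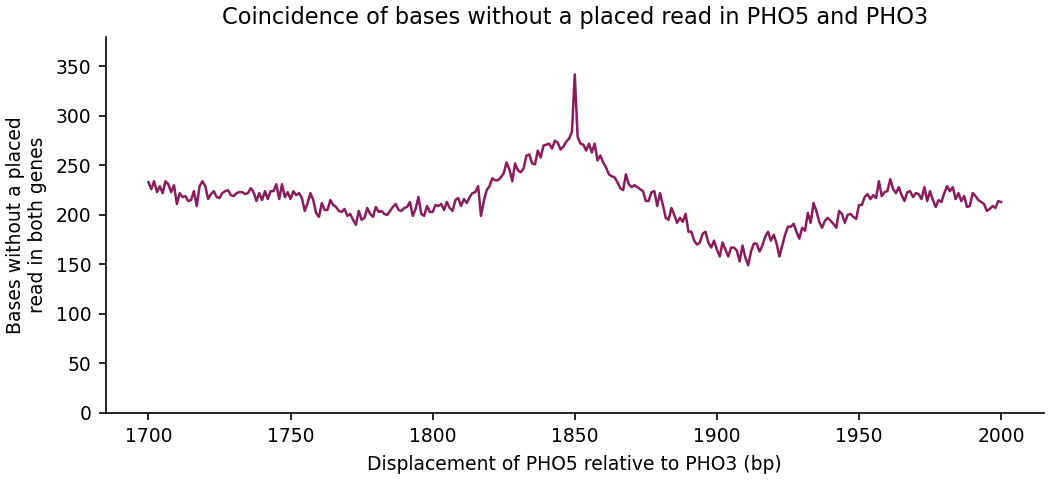
Number of coding bases without a placed read in both PHO5 and PHO3 (vertical axis) when PHO5 is laid over PHO3 at displacements of 1700 to 2000 bp (horizontal axis). A narrow peak of 342 bases stands at 1850 bp, the distance between the gene starts. It tops a broader rise, with 284 bases at 1849 bp and 279 at 1851 bp.

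Above the PHO5 promoter, on the side of PBY1, the called positions lay at 432134, 432347, 432763, 432919, 433088 and 433272. The first pair had occupancies of 3.08 and 5.91 in replicate 1 and of 4.64 and 7.01 in replicate 2. The other 4 ran from 0.604 to 1.98 in replicate 1 and from 0.541 to 2 in replicate 2, below the nuclear median of positions (2.36 and 2.59).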

How the data were processed

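The deposited files hold, per the labels and the values in them, positions of single reads that the authors aligned to sacCer2 (the build named in the submitters' processing notes), each lengthened to 150 bp along its strand. The unit is a read position, with no count, score or coverage. The aligner and the handling of duplicates and of reads with several positions are not given in the sources used here. The start (plus strand) or end (minus strand) of a line was taken as the 1-based 5′ end, which leaves each position uncertain by 1 bp. No genome sequence was used, so placeability was not measured and no sequence is shown.

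Ends were counted per base and strand, at most 20 reads per base were used for the strand distance, centres were smoothed with a Gaussian of SD 20 bp, and maxima were called in order of height, none within 147 bp of a higher one (Python 3.11.15, numpy 2.4.6, scipy 1.17.1), tested on simulated data. The simulated nucleosomes lay more than 147 bp apart, with reads on both strands alike. The test therefore does not cover closer maxima or positions that rest mostly on 1 strand. An earlier account of these data moved ends by 73 bp. Here the midpoint between the strands was used and 73 bp tried as an alternative. The members, regions and measures were chosen with earlier results of these data known. The genes named are PHO5, PHO3, their neighbours and PHO11 and PHO12. Comparing PHO5 with PHO3 by distance from the start, the exclusion zone of 100 bp and leaving out B8 were chosen after seeing the data. Intervals and limits cover counting error only, since PCR copies cannot be told from separate molecules.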

Additional observations from a re-analysis of the deposited data

How the results depend on the processing

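Of 135 alternative values, 95 stayed within the spread between libraries or, for counts, within 1.5 times, and 40 moved further. The 95 include single-library values of means over both libraries, which lie within that spread by construction, so the tally does not measure robustness. The widest step in the PHO5 promoter, 510 bp, was 344 bp with a move of 73 bp, 345 bp with a Gaussian of SD 10 bp, 387 bp with an exclusion zone of 120 bp and 285 bp with one of 100 bp, and 508 to 514 bp in single libraries. The lowest promoter occupancy, 0, was 0.00505 with the move of 73 bp, 0.0415 counting centres within 73 bp and 0.0809 from the deposited intervals, and 0 in either library. Mean occupancy of the PHO5 promoter, 1.10, was 0.969 with the move of 73 bp, 0.869 with 1 read per position and strand, 0.894 within 73 bp and 0.882 from deposited intervals (single libraries 1.03 to 1.17). That of the PHO5 coding region, 2.89, was 2.63, 1.52, 2.34 and 2.34 under the same settings in that order (2.73 to 3.06), and that of PHO3, 2.95, was 2.60, 1.40, 2.34 and 2.30 (2.86 to 3.03). With genes moved 50 bp toward higher or lower coordinates PHO3 had 2.41 or 3.22, and 2.51 without bases within 120 bp of B8. Median spacing in PHO5, 186 bp, was 146.5 bp with either smaller exclusion zone and 177 bp with genes moved 50 bp higher (173.5 to 184 bp). In PHO3, 166 bp, it was 176 bp with the move of 73 bp, 175 bp with SD 10 bp or genes moved 50 bp higher, and 178 bp with 1 read per position and strand (167 to 175 bp). The correlation between libraries, 0.956, was 0.943 with the move of 73 bp or 1 read per position and strand, 0.957 within 73 bp and 0.955 from deposited intervals. The PHO5 promoter had 3 positions with the move of 73 bp (178, 475 and 688 bp upstream) or with genes moved 50 bp higher, which puts U1 in the coding region. Moving the genes 50 bp higher also puts I1 in the PHO3 coding region and leaves A7 and B8 outside the coding regions. The low between U2 and U3, a mean of 0.0177, was between 0.0135 and 0.0632 under the other settings tried, except that it was 0.156, above the limit of 0.1, from deposited intervals. The cause of these differences was not tested. No paired analysis was possible because there is 1 group.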
